A study of Mus with 6 samples.

Results

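The genes described here are 6 genes of cellular iron handling and of the defence against ferroptosis, chosen by Ensembl gene ID: Tfrc, Fth1, Ftl1, Slc40a1, Gpx4 and Acsl4. They are 6 of the 35304 IDs in a table of read counts from 4T1, a mouse mammary carcinoma cell line grown in medium with fetal bovine serum. RNA sequencing was done on 6 samples of total RNA. The labels describe 3 samples as having no treatment, with no vehicle named, and the other 3 as exposed for 24 h to 10 µg/mL of isopimaric acid (IPA), a resin acid found in conifers. The series title calls IPA an ion channel regulator that acts on calcium and oxidative phosphorylation pathways, and the comparison asks whether the mRNAs of these 6 genes differ in cells exposed to it.

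Cells take up iron as transferrin bound to the transferrin receptor, store the excess in a ferritin shell built of heavy and light chains, and export it through ferroportin. Iron regulatory proteins, which bind hairpins in the mRNAs of these genes, raise uptake and hold back storage and export when iron is scarce. For ferritin this control acts mainly on translation, so the mRNA level is not a measure of the protein. Labile iron also drives the peroxidation of membrane lipids, and cell death by this route is called ferroptosis. The glutathione-dependent enzyme GPX4 reduces lipid peroxides, while ACSL4 supplies the polyunsaturated acyl chains that are peroxidised.

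No member of the set passed the test in either direction. Over all 6 libraries, 0 of the 6 genes were called higher and 0 lower with IPA (edgeR quasi-likelihood test, adjusted p under 0.05), where 0% of all 24935 IDs tested were called. At an unadjusted p under 0.05 there was 1 of the 6, Acsl4, and 1560 of the 24935. DESeq2 on the same libraries called 0 of the 6, with 45 IDs higher and 83 lower in all. It gave no adjusted p for 6669 of the 24935 IDs. Limma-voom called 0 of the 6 and 0 IDs in all, and with quality weights 1 of the 6, Acsl4 (lower), with 492 IDs higher and 755 lower. One library bore on most of these values. Untreated replicate 2 correlated with the other libraries in log2 CPM, counts scaled to a common library size, at 0.779 to 0.811, whereas the other 5 correlated with each other at 0.922 to 0.987, correlations that are across genes. For this reason each fitted change is given with and without it. With it left out, 3.46% of 25592 IDs were called, 1.26% higher and 2.2% lower, and 0 of the 6 genes were among them in either direction. At an unadjusted p under 0.05 there were then 2 of the 6, Slc40a1 and Acsl4, and 4312 of the 25592.

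The libraries held 3410411 to 58924711 counts, the fewest in IPA replicate 1. Levels below are CPM scaled by TMM factors, which correct library totals for differences in RNA composition. The factor of untreated replicate 2 was 0.754, against 1.02 to 1.11 in the others. All 6 genes passed the filter on low counts. Apart from Slc40a1, the lowest count of any of them was 466, for Acsl4 in IPA replicate 1. Levels are not compared between genes, since no transcript lengths were used. In bulk samples, fewer cells of a type and less RNA per cell cannot be told apart. Defining markers, whether of 4T1 or of any other cell type, were not analysed here, so their part in the departure of untreated replicate 2 was not tested.

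**Figure D1:**
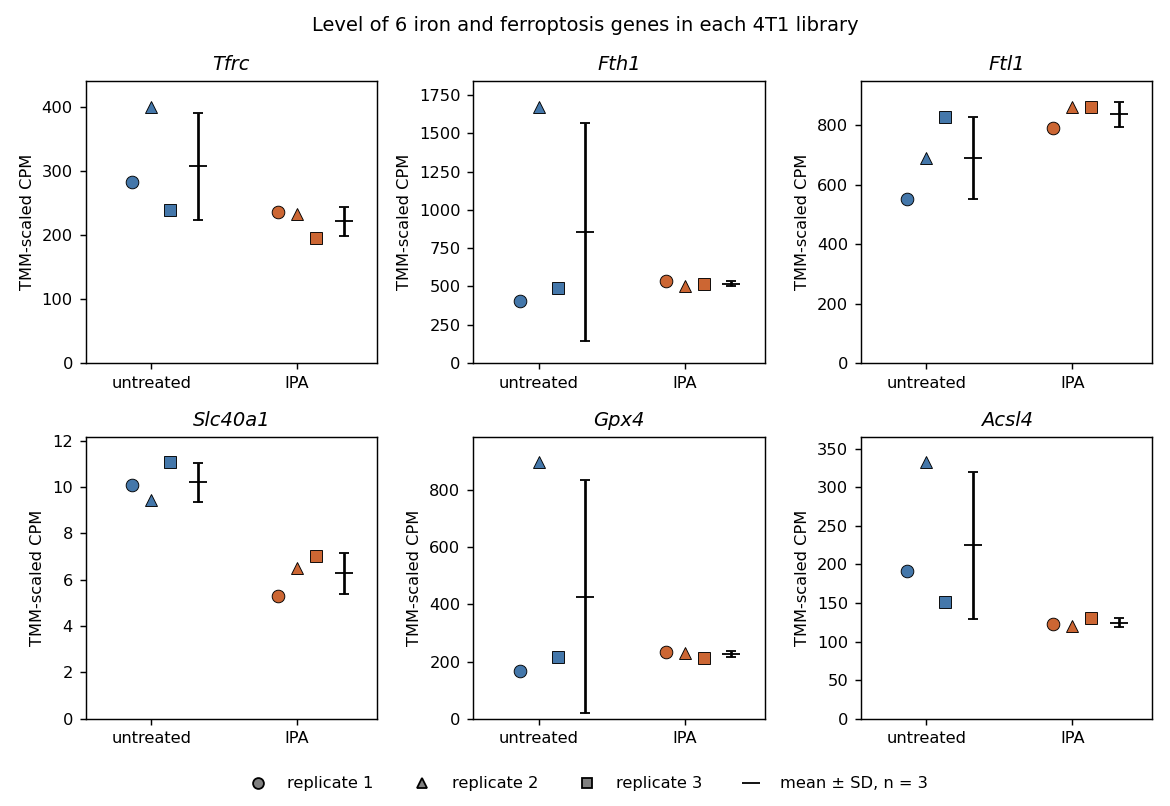
TMM-scaled CPM of each gene (vertical axis, starting at 0) in the 3 untreated and 3 IPA libraries, with replicates told apart by symbol and the mean ± SD of each group beside them. Untreated replicate 2 is far above the other libraries for Fth1 (1673 CPM) and Gpx4 (899 CPM), the highest for Tfrc and Acsl4, and within or near the range of the other untreated libraries for Ftl1 and Slc40a1.

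Tfrc encodes transferrin receptor 1, through which cells take up transferrin-bound iron (ENSMUSG00000022797; GRCm38 chromosome 16, 32608896 to 32632794). Its level was 283, 400.4 and 239 CPM in untreated replicates 1, 2 and 3, and 236, 233 and 195 CPM in IPA replicates 1, 2 and 3. The IPA libraries all lay below the untreated ones, but by little. The counting interval of untreated replicate 3, 234.7 to 243 CPM, overlapped those of IPA replicate 1, 221 to 252 CPM, and IPA replicate 2, 228 to 237 CPM (95% exact Poisson). With CPM from library totals the groups overlapped. The fitted log2 fold change, IPA relative to untreated, was -0.47 ± 0.26 (SE), with a 95% interval from -1.08 to 0.13 and an edgeR adjusted p of 0.657. Without untreated replicate 2 it was -0.26 ± 0.14, with an interval from -0.55 to 0.03 and an edgeR adjusted p of 0.372. The lower end of that interval corresponds to 0.681 times the untreated level.

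Fth1 encodes the ferritin heavy chain, which carries the ferroxidase activity that oxidises iron for storage (ENSMUSG00000024661; GRCm38 chromosome 19, 9980600 to 9985111). It stood at 404, 1673 and 487 CPM in untreated replicates 1, 2 and 3, and at 535, 506 and 516 CPM in IPA replicates 1, 2 and 3. The 3 IPA libraries were close together, above untreated replicates 1 and 3 and far below untreated replicate 2. That library held 3.75 times the mean of the other untreated ones. The direction of the fitted change therefore depended on it. The log2 fold change was -0.72 ± 0.55 over all 6 libraries, with an interval from -2.01 to 0.57 (edgeR adjusted p = 0.683). On the other 5 libraries it was 0.20 ± 0.14, with an interval from -0.09 to 0.49 (edgeR adjusted p = 0.532).

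Ftl1 encodes the ferritin light chain, which favours formation of the iron core (ENSMUSG00000050708; GRCm38 chromosome 7, 45457944 to 45459886). Its level was 551, 688 and 829 CPM in untreated replicates 1, 2 and 3. It was 789, 860.2 and 862 CPM in IPA replicates 1, 2 and 3. Here untreated replicate 2 lay between the other untreated libraries, at 0.997 times their mean. The widest gap was instead between untreated replicates 1 and 3, of which the first was at 0.666 times the second. Untreated replicate 3 exceeded IPA replicate 1, so the groups overlapped. With CPM from library totals all 3 IPA libraries were above all 3 untreated ones. The share of all IDs for which that held was not computed. The log2 fold change was 0.28 ± 0.25, with an interval from -0.30 to 0.86 (edgeR adjusted p = 0.716), and 0.26 ± 0.16 without untreated replicate 2, with an interval from -0.08 to 0.59 (edgeR adjusted p = 0.462). Both ferritin chains have many processed pseudogenes in the mouse genome, and how the authors' counting treated reads that match several places is not given in the sources used here, so the counts of Fth1 and Ftl1 are uncertain in that respect. No other ID had counts within 2% of those of Fth1, Ftl1 or any of the other 4 genes in all 6 libraries. That comparison finds only IDs with nearly the same counts and would not show reads partly shared with pseudogenes.

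Slc40a1 encodes ferroportin, the exporter of iron from cells (ENSMUSG00000025993; GRCm38 chromosome 1, 45908070 to 45926532). It had 208, 417 and 598 counts in untreated replicates 1, 2 and 3, or 10.1, 9.41 and 11.1 CPM. In IPA replicates 1, 2 and 3 it had 20, 307 and 304 counts, or 5.27, 6.52 and 7.01 CPM. Every IPA library lay below every untreated one on this scale. The 20 counts of IPA replicate 1 leave it a counting interval from 3.22 to 8.15 CPM (95% exact Poisson), and untreated replicate 2 was lower, at 7.08 CPM, when library totals were used. On that scale it was below the 7.41 CPM of IPA replicate 3, so the groups overlapped. The log2 fold change was -0.69 ± 0.30, with an interval from -1.39 to 0.01 (edgeR adjusted p = 0.657). Without untreated replicate 2 it was -0.74 ± 0.23, with an interval from -1.23 to -0.25, or 0.427 to 0.839 times the untreated level, and an edgeR adjusted p of 0.0842. On the same 5 libraries limma-voom gave -0.72 with an adjusted p of 0.0403, past the threshold, and DESeq2 -0.71 with 0.0632. The adjusted p was 0.0976 in edgeR with RLE factors and 0.14 in edgeR with library totals. Leaving out IPA replicate 1 as well gave -0.64 ± 0.21 (edgeR adjusted p = 0.0901). Its fitted value moved less than those of Tfrc, Fth1, Gpx4 and Acsl4 when untreated replicate 2 was left out.

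Gpx4 encodes the selenoprotein that reduces lipid hydroperoxides in membranes with glutathione (ENSMUSG00000075706; GRCm38 chromosome 10, 80047166 to 80056439). Untreated replicates 1, 2 and 3 had 168, 899 and 217 CPM, and IPA replicates 1, 2 and 3 had 234, 229.8 and 214 CPM. As for Fth1, the IPA libraries were alike and untreated replicate 2 stood above all others, at 4.67 times the mean of untreated replicates 1 and 3. Untreated replicate 3 lay within the IPA range. The log2 fold change was -0.92 ± 0.62 over all 6 libraries, with an interval from -2.39 to 0.55 (edgeR adjusted p = 0.665). When untreated replicate 2 was left out its direction turned, to 0.21 ± 0.14, with an interval from -0.08 to 0.50 (edgeR adjusted p = 0.504). In that comparison the interval corresponds to 0.945 to 1.41 times the untreated level.

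Acsl4 encodes the long-chain acyl-CoA synthetase that activates arachidonic and adrenic acid for insertion into phospholipids (ENSMUSG00000031278; GRCm38 chromosome X, 142317993 to 142390802). Its level was 191, 333 and 151 CPM in untreated replicates 1, 2 and 3, and 123, 120.2 and 131 CPM in IPA replicates 1, 2 and 3. All 3 IPA libraries lay below all 3 untreated ones, on this scale and with CPM from library totals. Acsl4 was the only one of the 6 for which both held. Of all IDs tested, 10.8% were lower without overlap on the TMM scale, and the share on both scales was not computed. The log2 fold change was -0.85 ± 0.32, with an interval from -1.60 to -0.11 and an unadjusted p of 0.0304, but an edgeR adjusted p of 0.657. Without untreated replicate 2 it was -0.48 ± 0.14, with an interval from -0.76 to -0.20, or 0.589 to 0.872 times the untreated level, and an edgeR adjusted p of 0.0554. This lies just outside the threshold. On the same 5 libraries the adjusted p was 0.0452 with DESeq2 and 0.0387 with limma-voom. It was 0.0701 in edgeR with RLE factors and 0.125 in edgeR with library totals, where the log2 fold change was -0.37. Leaving out IPA replicate 1 as well gave an edgeR adjusted p of 0.0968. Over all 6 libraries with limma-voom quality weights (0.0388 for untreated replicate 2), the log2 fold change was -0.48 and the adjusted p was 0.0461.

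**Figure D2:**
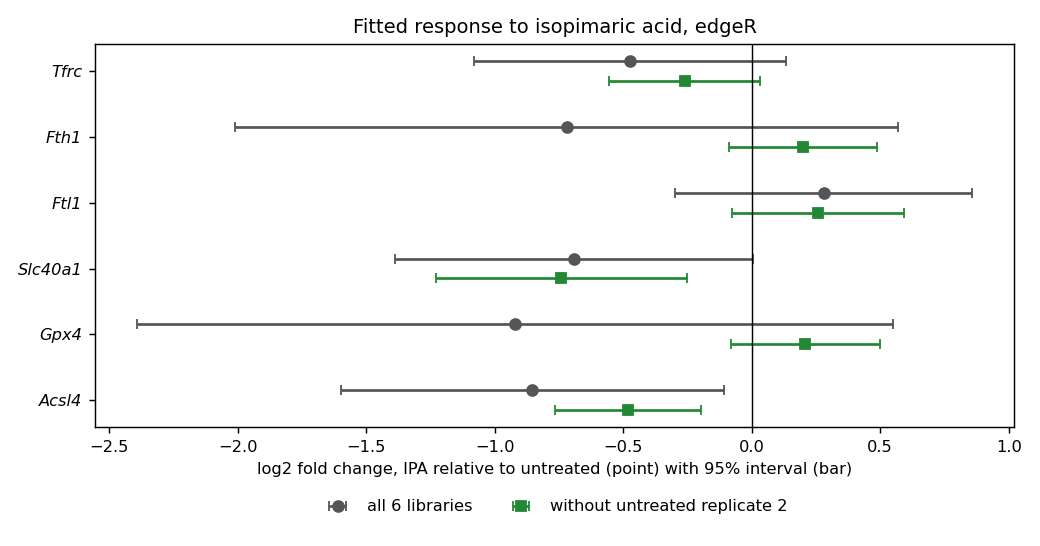
Fitted log2 fold change of each gene, IPA relative to untreated (horizontal axis), with its 95% interval from edgeR, over all 6 libraries (circles) and without untreated replicate 2 (squares). Fth1 and Gpx4 change sign between the fits, from -0.72 to 0.20 and from -0.92 to 0.21, while Slc40a1 and Acsl4 stay below 0 and their intervals lie wholly below 0 without that library.

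As a set, the members did not all go the same way in either fit, and their split by direction depended on untreated replicate 2. Over all 6 libraries the fitted change was below 0 for 5 and above 0 for 1, with a median log2 fold change of -0.71, against -0.08 over all IDs tested. Without untreated replicate 2 it was below 0 for 3 (Tfrc, Slc40a1 and Acsl4) and above 0 for 3 (Fth1, Ftl1 and Gpx4), with a median of -0.03, against -0.04 over all IDs tested. The TMM-scaled levels of the groups did not overlap for 3 of the 6, all lower with IPA (Tfrc, Slc40a1 and Acsl4), where 10.8% of all IDs tested were lower without overlap and 9.49% higher. Untreated replicates 1 and 3 alone were also set against the 3 IPA libraries, with the TMM factors of all 6 libraries. There was then no overlap for 4 of the 6 genes, the same 3 lower and Fth1 higher. Of all IDs, 18.2% were lower without overlap and 14.2% higher. With CPM from library totals in that comparison, Tfrc overlapped, Slc40a1 and Acsl4 were lower without overlap, and Fth1, Ftl1 and Gpx4 higher. The share of all IDs was not computed on that scale. The genes were chosen with earlier results of these data known. With library totals in place of TMM factors, the median over all IDs tested moved from -0.08 to 0.13, and none of the 6 fitted values changed sign.

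The departure of untreated replicate 2 differed from gene to gene within the set. In log2 CPM it exceeded the mean of untreated replicates 1 and 3 by 2.23 for Gpx4, 1.91 for Fth1, 0.97 for Acsl4 and 0.62 for Tfrc. It exceeded that mean by 0.03 for Ftl1 and was at -0.17 for Slc40a1. Departures of this size were common in that library: 54.6% of the 24935 IDs lay more than 1 log2 unit from the mean of the other untreated libraries in either direction. Gpx4 stood above 90.6% of all IDs in this measure and Fth1 above 87.4%, whereas Ftl1 and Slc40a1 were near the median of -0.11. The quartiles over all IDs were -1.28 and 0.99, compared with -0.33 and 0.28 for the difference between untreated replicates 1 and 3.

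**Figure D3:**
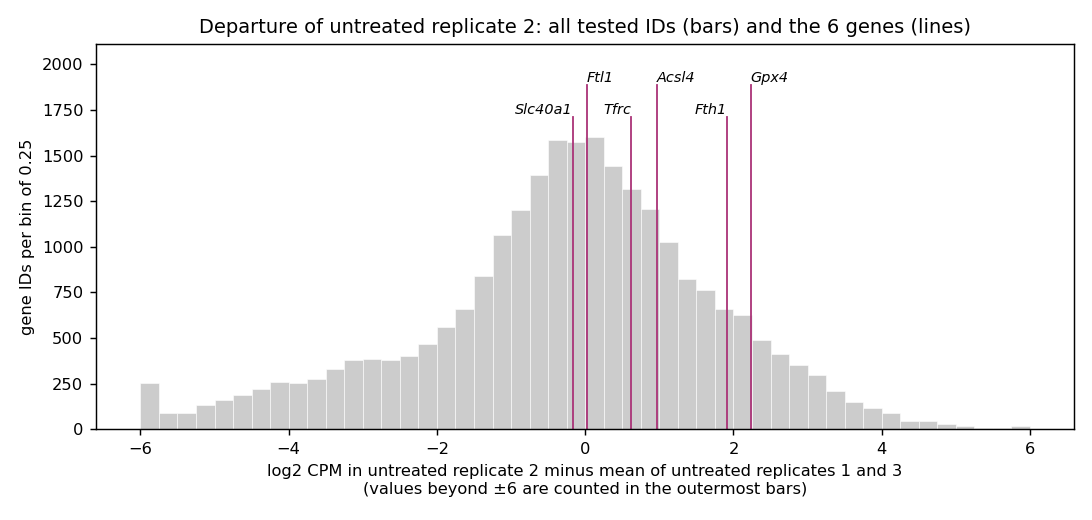
Difference in log2 CPM between untreated replicate 2 and the mean of untreated replicates 1 and 3 (horizontal axis), as a histogram of all 24935 tested IDs (bars, IDs per bin) with the 6 genes as lines. Gpx4 (2.23) and Fth1 (1.91) lie in the upper flank, and Ftl1 (0.03) and Slc40a1 (-0.17) near the middle of the distribution.

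Ratios of counts between genes of the same library do not depend on depth or on scaling factors, and they are compared here only between libraries. Ferritin is a mixed shell, and the ratio of Fth1 to Ftl1 counts was 0.733, 2.43 and 0.588 in untreated replicates 1, 2 and 3, and 0.678, 0.588 and 0.599 in IPA replicates 1, 2 and 3. Among the 6 libraries the ratio was thus highest in untreated replicate 2, and the range of the other untreated libraries overlapped that of the IPA libraries. The mean log2 ratio differed by -0.71 between IPA and untreated libraries, and by -0.08 without untreated replicate 2. The ratio of Gpx4 to Fth1, chosen after its values were seen, was 0.415, 0.537 and 0.446 in untreated replicates 1, 2 and 3, and 0.437, 0.455 and 0.414 in IPA replicates 1, 2 and 3. It too was highest in untreated replicate 2, outside the range of the other 5 libraries, but by less than the ratio of Fth1 to Ftl1. The mean log2 ratio differed by -0.09 between IPA and untreated libraries, and by 0.02 without untreated replicate 2, with overlap in both cases.

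The ratio of Tfrc to Fth1 sets the uptake receptor against the storage chain, which iron regulatory proteins control in opposite senses. For ferritin that control acts mainly on translation, so a ratio of mRNAs does not measure it. The Tfrc to Fth1 ratio was 0.701, 0.239 and 0.49 in untreated replicates 1, 2 and 3, and 0.442, 0.461 and 0.377 in IPA replicates 1, 2 and 3. The IPA libraries fell between untreated replicates 2 and 3. The mean log2 ratio was -1.20 ± 0.79 in untreated and -1.23 ± 0.15 in IPA libraries (SD, n = 3 each), a difference of -0.03. With 2 untreated libraries, replicates 1 and 3, it was -0.46, with no overlap between 2 untreated and 3 IPA libraries. Set against the light chain, the mean log2 ratio of Tfrc to Ftl1 differed by -0.74 over all 6 libraries and by -0.54 with those 2 untreated libraries, and that of Tfrc to Slc40a1 by 0.26 and 0.53. In both of these ratios the groups overlapped, with and without untreated replicate 2. The ratio of Acsl4 to Gpx4, substrate supply against peroxide removal, was 1.14, 0.37 and 0.696 in untreated replicates 1, 2 and 3, and 0.525, 0.523 and 0.611 in IPA replicates 1, 2 and 3. Its mean log2 value was -0.59 ± 0.81 in untreated and -0.86 ± 0.13 in IPA libraries (SD, n = 3 each). The difference of -0.27 was smaller than the spread of the untreated libraries. It was -0.69 without untreated replicate 2, again with no overlap. In the same comparison of single IDs by TMM-scaled CPM, 18.2% were lower without overlap and 14.2% higher. The share among ratios of other gene pairs was not computed. No test was made on the ratios given here, since the genes in them had been chosen.

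**Figure D4:**
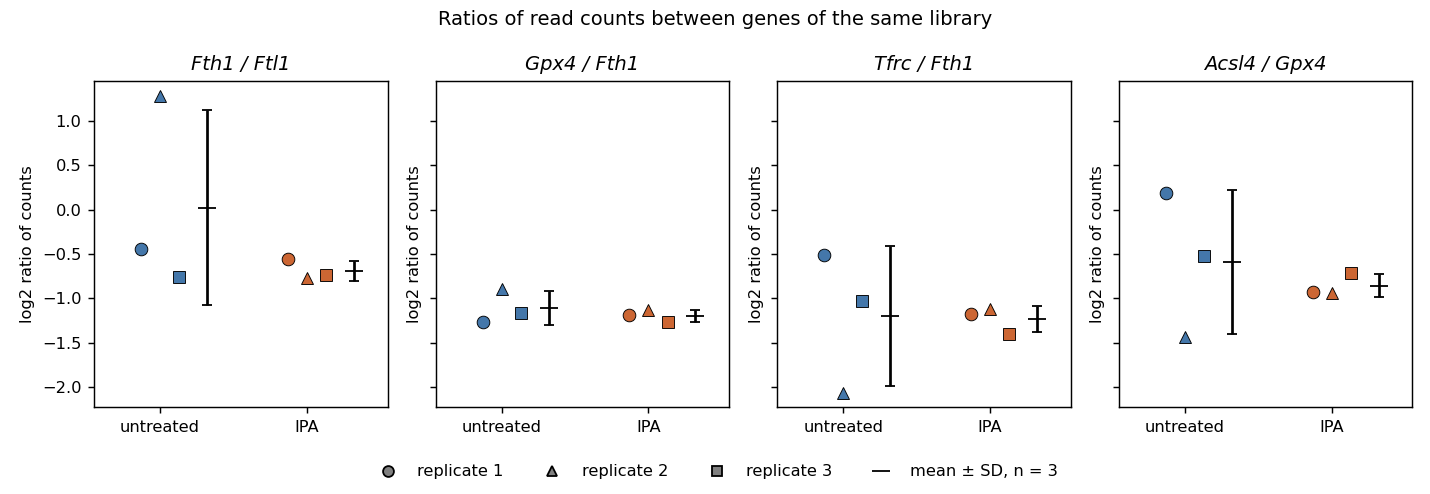
Log2 ratio of read counts between pairs of genes within each library (vertical axis, common to all panels), with the mean ± SD of each group of 3. Untreated replicate 2 is the highest library in the ratios Fth1 to Ftl1 (1.28) and Gpx4 to Fth1 (-0.90) and the lowest in Tfrc to Fth1 (-2.06) and Acsl4 to Gpx4 (-1.43), and untreated replicate 1 is the highest in the last (0.19).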

How the data were processed

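RNA was extracted with Trizol from 3 untreated and 3 IPA-treated samples of 4T1 cells, and libraries followed a standard Illumina protocol, per the labels' protocols. The authors deposited raw read counts, whole numbers in 1 column per sample under Ensembl IDs, as the file headers and values show. The treated columns are headed IA1 to IA3 and were matched to titles ending in IPA1 to IPA3 by letters and number. The submitters' processing notes name the builds GRCm38 and mm10. Not given in the sources used here are the aligner, the counter, the annotation, the strand setting and how reads mapping to several places were treated. Nothing says that replicates were separate cultures, so the p-values rest on a spread between samples that may be purely technical. No 2 replicates agreed within sampling noise (chi-square per degree of freedom of at least 6.74).

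Counts were fitted with edgeR 4.0.16 (robust quasi-likelihood F-test, TMM factors, filterByExpr) in R 4.3.3, with Benjamini-Hochberg adjustment over all IDs tested and calls at an adjusted p under 0.05. Standard errors are the log2 fold change divided by the square root of F, and 95% intervals use the fit's degrees of freedom. Log2 CPM used a prior count of 2. The procedure was tested on simulated counts drawn from a mean profile common to all libraries. No simulated library departed as untreated replicate 2 does, so that test does not cover such a case. Alternatives were DESeq2 1.42.0, limma 3.58.1 (voom, with and without quality weights), other factors and filters, the replicate block and leaving out libraries. Counting intervals cover counting error only, and 3 counts correspond to 0.0509 to 0.88 CPM.

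The 6 genes, their names, the ratios and the lists were chosen with earlier results of these data known; the ratios of Gpx4 to Fth1, Tfrc to Ftl1 and Tfrc to Slc40a1 were added after the counts were seen. Gene positions are those of RefSeq for GRCm38.p6, matched by symbol for 6 of 6. The rule for named genes took the 6 genes, called genes of a wider iron and ferroptosis list, and the 2 genes most alike to each in log2 CPM. Of the reference table's 49997 rows, 0 carry an Ensembl ID, so the wider list, cell type markers and genes alike, all set by symbol, were not analysed here.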

Additional observations from a re-analysis of the deposited data

How the results depend on the processing

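Over all 6 libraries DESeq2 called 45 IDs higher and 83 lower, limma-voom with quality weights 492 and 755, while library totals, and also testing without a low-count filter, called 1 higher ID each. Without untreated replicate 2 the calls were 645 and 656 with DESeq2, 660 and 1009 with limma-voom, 364 and 481 with RLE factors, 691 and 327 with library totals, and 719 and 763 without IPA replicate 1 as well. DESeq2 gave no adjusted p for 6669 of 24935 IDs over all 6 libraries and for 8436 of 25592 without untreated replicate 2. Leave-one-out fits called from 0 to 322 IDs higher and from 0 to 564 lower, with every count above 0 from leaving out untreated replicate 2. Of the 6 genes, 1 was called lower with quality weights (Acsl4), 1 with DESeq2 without untreated replicate 2 (Acsl4) and 2 with limma-voom without it (Acsl4, and Slc40a1 at an adjusted p of 0.0403); 0 were called in the other alternatives.

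Fth1 and Gpx4 turned positive with quality weights (0.18 and 0.21) and wherever untreated replicate 2 was left out: 0.20 and 0.21 with edgeR, 0.22 and 0.23 with DESeq2, 0.18 and 0.19 with limma-voom, 0.22 and 0.23 with RLE factors, 0.31 and 0.31 with library totals, and 0.20 and 0.21 without IPA replicate 1 as well. With 1 library left out, Fth1 ran from -0.97 (without untreated replicate 3) to 0.20 and Gpx4 from -1.20 (without untreated replicate 3) to 0.21. Tfrc, Slc40a1 and Acsl4 were below 0 and Ftl1 above 0 in all 20 alternatives, but their size moved: Tfrc ran from -0.60 to -0.15 (-0.21 with library totals), Slc40a1 from -0.78 to -0.49, Acsl4 from -1.05 to -0.37 and Ftl1 from 0.20 to 0.50 (0.50 with library totals, 0.46 without untreated replicate 3). With 1 library left out, the difference in log2 ratio ran from -1.11 to -0.08 for Fth1 to Ftl1, from -0.46 to 0.31 for Tfrc to Fth1 and from -0.69 to 0.12 for Acsl4 to Gpx4. For all of these shifts, apart from the samples left out, the cause was not tested.

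The fit with the replicate number as a block (replicate block) called 0 IDs and 0 of the 6 genes. Samples sharing a number deviated from their group means with correlations of -0.08, 0.02 and 0.16, and 3 of 6 samples were closest to the one of their own number. The untreated mean includes untreated replicate 2, which stood apart, so these values cannot decide whether samples were paired. Pairing was not assumed in the main fit. The wider list and its alternatives were not run.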
